A study of Mus musculus with 7 samples.

Results

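MEF-2F cells, mouse embryonic fibroblasts carrying virus for Olig2 and Sox10, were set against PC-2F cells, cerebral pericytes carrying the same 2 factors. All barcodes of both libraries with 500 or more unique molecular identifiers (UMIs) were taken: 82 cells of MEF-2F and 179 cells of PC-2F, 261 of the 1124 cells kept over the 7 libraries of the series. The donors without virus were embryonic fibroblasts (MEF, 131 cells) and cultured cerebral pericytes (PC, 290 cells), and they show which differences of origin were already there before the factors. All animals were C57BL/6. MEF and MEF-2F are labelled as embryo tissue and PC and PC-2F as brain tissue. Both 2F libraries grew in OPC medium, MEF in MEF medium and PC in pericyte medium, so that 2F cells differ from their donors by medium as well as by virus. Libraries that had received Nkx6-2 as well (MEF-3F, 161 cells; PC-3F, 147 cells) and primary oligodendrocyte progenitors of brain (pOPC, 134 cells) served for comparison.

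Each population was 1 droplet library of 3′ transcript ends, so the differences have no replicate check, and no test between populations was possible. The cells of a library share its culture and are not replicates. Cells were dissociated with trypsin-EDTA, and the passage, the time after transduction and the number of embryos or animals are not given in the sources used here. Because cells were summed, fewer cells that express a gene and less RNA per cell cannot be told apart except where shares of cells are given.

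Olig2 and Sox10 are transcription factors of the oligodendrocyte lineage. Olig2 is needed to specify oligodendrocyte progenitors, and Sox10 drives myelin genes. Sox10 is also a main regulator of the neural crest, from which Schwann cells and melanocytes derive, so that Schwann cells share many Sox10 targets with oligodendrocytes. Fibroblasts of the embryo trunk carry a positional Hox code and express collagens. Brain pericytes are mural cells of capillaries, and those of the forebrain derive from the neural crest of the head.

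The 2 libraries differed in depth. MEF-2F held 230101 UMIs with a median of 2411 per cell, and PC-2F held 1198981 UMIs with a median of 6259 per cell. Donor totals were 789695 UMIs in MEF and 1292320 UMIs in PC. Levels are given as CPM, the UMIs of a gene scaled to a common library total. A gene with 0 UMIs could still lie at up to 3 UMIs, which was 13.0 CPM in MEF-2F and 2.5 CPM in PC-2F, so a gene at 0 in MEF-2F is known less precisely. A fold given as at least a value sets the library at 0 to those 3 UMIs and leaves out the counting error of the other library. No barcode was shared by any of the 21 pairs of libraries. Intervals given in parentheses are exact 95% intervals and cover counting error only. The UMI counts themselves were decoded from the deposited values, and every level depends on that decoding.

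Marker genes went only partly with the labels of the donors. In PC, the pericyte markers Rgs5, Kcnj8, Abcc9 and Vtn had 0 UMIs while Pdgfrb had 344 CPM, and 4 mesothelial or epithelial markers summed to 777 UMIs. Those 4 markers had 0 UMIs in MEF-2F and in PC-2F. In the 2F libraries, Kcnj8, Abcc9, Anpep and Vtn were at 0 on both sides. The 7 fibroblast markers summed to 8214 CPM in MEF-2F and 3041 CPM in PC-2F, against 14986 CPM in MEF and 3700 CPM in PC, with Thy1 at 0 in MEF-2F. The 6 oligodendrocyte markers summed to 3364 CPM in MEF-2F and 1629 CPM in PC-2F, and to 72.2 CPM in MEF and 44.9 CPM in PC. Macrophage markers had 0 UMIs in MEF-2F and 2 UMIs in PC-2F, and endothelial markers had 1 UMI in each. In the donors, the macrophage markers had 73 UMIs in MEF and 12 UMIs in PC. Of 7 measured genes of the macrophage list, 6 were higher in MEF than in PC. Among the 8 pericyte markers, only Vtn was at 0 in MEF. The MEF-2F library joins 2 blocks of barcodes, of 65 and 17 cells, which the labels do not explain, and values within blocks are given where they part.

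A gene counted as measured with at least 10 UMIs and 20 CPM in 1 of the 2 libraries compared. It was called when it differed at least 4-fold and the interval of the ratio lay wholly beyond 2-fold. Between MEF-2F and PC-2F, 7979 genes were measured. Of these 385 (4.83%) were higher and 198 (2.48%) were lower in MEF-2F, 583 (7.31%) in all. Between the donors MEF and PC, 603 of 8122 measured genes (7.42%) were higher and 455 (5.6%) were lower in MEF, 1058 (13%) in all. The 10 UMIs that a gene needed stood for 43.5 CPM in MEF-2F but for 12.7 CPM in its deeper donor, so the 2 counts rest on unequal minimums. With a minimum of 100 CPM the calls were 173 higher and 131 lower in MEF-2F, and 174 higher and 149 lower in MEF.

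Part of the difference between the 2F cells already stood between their donors, and more genes were new. Of the 385 genes higher in MEF-2F, 116 (30.1%) were also called higher in MEF than in PC and are named standing here. A further 57 were at least 2-fold higher in MEF without meeting the full rule (partial). New differences numbered 199 (51.7%): 60 genes that were measured in the donors and less than 2-fold apart there, and 139 that were measured in neither donor. Only 12 were opposite, that is at least 2-fold lower in MEF than in PC. Of the 198 genes lower in MEF-2F, 33 (16.7%) were standing, 42 were partial, 55 were new with donors alike, 50 were new with neither donor measured, and 18 were opposite.

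**Figure D1:**
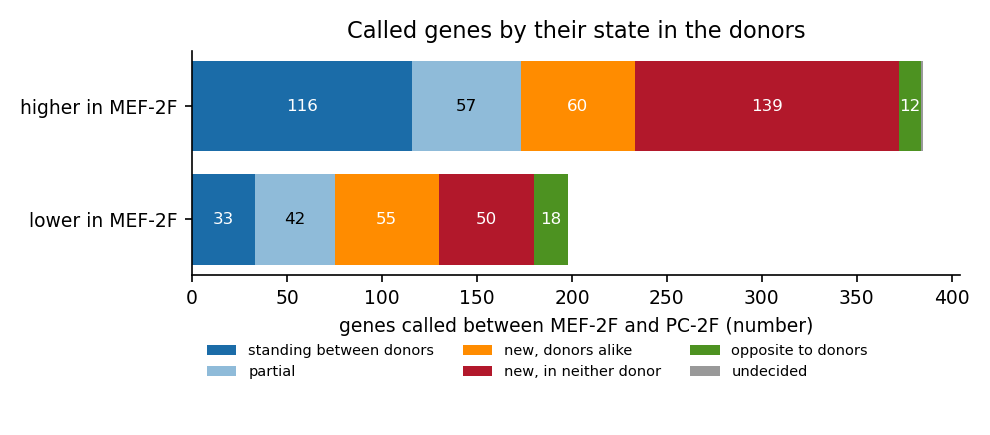
Number of genes called higher (upper bar) or lower (lower bar) in MEF-2F than in PC-2F, split by their state between the donors MEF and PC. Of 385 higher genes 116 were standing and 199 were new, and of 198 lower genes 33 were standing and 105 were new.

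The new genes differed in which side had left its donor in the direction that parts the 2F libraries. Against the donors by the same rule, 524 of 7542 genes (6.95%) were higher and 263 (3.49%) lower in MEF-2F than in MEF, 787 (10.4%) in all, and 679 of 8341 (8.14%) were higher and 350 (4.2%) lower in PC-2F than in PC, 1029 (12.3%) in all. Of the 139 genes higher in MEF-2F and measured in neither donor, 114 were called higher in MEF-2F than in MEF. In that group 0 were called lower in PC-2F than in PC. Calls the other way were not counted, and Ednrb, Col11a2 and Col9a2 of that group were also called higher in PC-2F than in PC. Of the 50 lower ones, 49 were called higher in PC-2F than in PC, and 0 were called lower in MEF-2F than in MEF. Aldoc of that group was called higher than the donor on both sides. These counts follow in part from the rule, since a gene absent from both donors can part the 2F libraries only by being higher in 1 of them. Of the 60 higher genes whose donors were alike, 12 were called higher in MEF-2F than in MEF and 13 lower in PC-2F than in PC. The other 35 had neither call. Among the 116 standing higher genes, 99 had neither of these 2 calls, and moves the other way were again not counted.

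Most donor differences were no longer called between the 2F cells. Of the 603 genes higher in MEF than in PC, 116 (19.2%) were called the same way after the factors, 11 the opposite way, 222 were measured but not called, and 254 no longer met the measured level in either 2F library. Of the 455 genes lower in MEF, 33 (7.25%) were called the same way, 5 the opposite way, 254 were measured but not called and 163 were not measured. The median log2 ratio of the 603 genes was 1.27 in MEF-2F against PC-2F and 3.65 in MEF against PC, and that of the 455 genes was -0.55 after and -2.79 before. Those genes were chosen for their donor difference, a choice that by itself favours smaller ratios in other libraries. Across the 7022 genes measured in both pairs, the log2 ratios correlated with Pearson's r = 0.36 and Spearman's rho = 0.31. This is a description across genes, which are not independent replicates, and all points share the same 4 libraries.

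**Figure D2:**
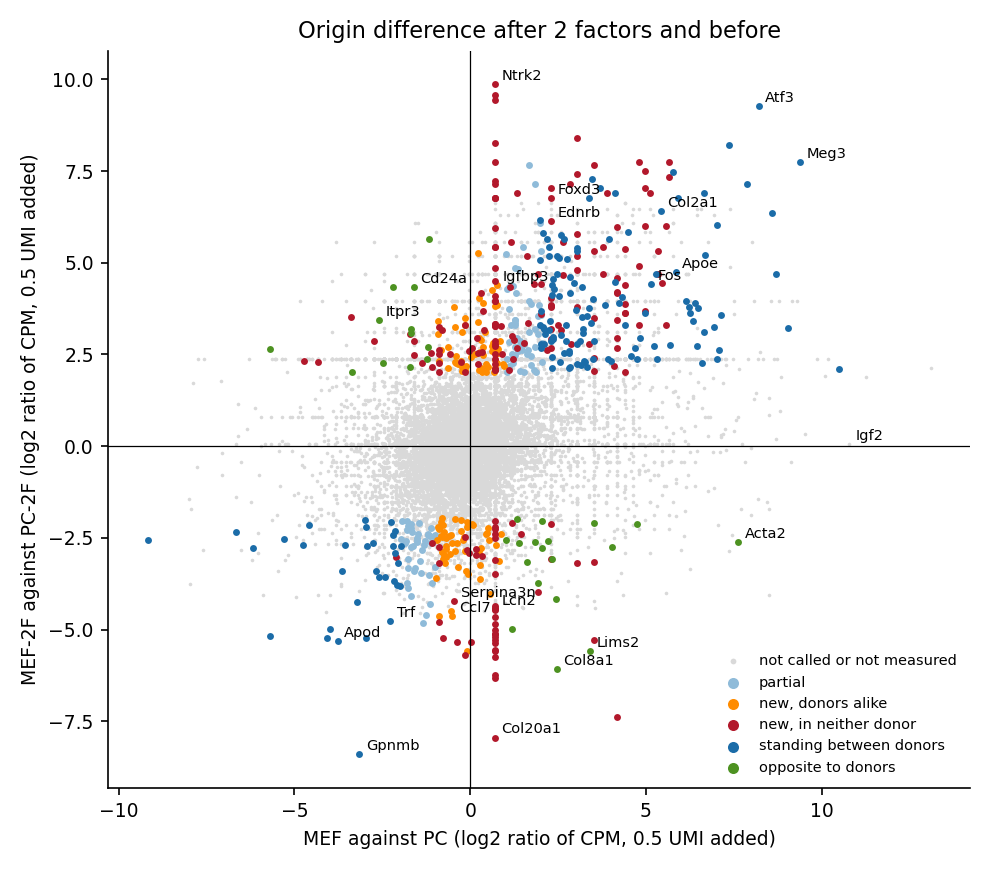
Each point is a gene, with the log2 ratio of MEF against PC on the horizontal axis and of MEF-2F against PC-2F on the vertical axis (0.5 UMI added per library). Coloured genes are called between the 2F libraries. The vertical stripe near 0.71 holds genes with 0 UMIs in both donors, which the added 0.5 UMI and the unequal depth put there, and Ntrk2 at the top and Col20a1 at the foot belong to it.

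Genes of the immediate early response, which cells transcribe within minutes of a stimulus, were higher in MEF-2F, in part as between the donors. Of 21 measured members of the immediate early and heat shock list, 12 were higher and 0 were lower in MEF-2F, with a median log2 ratio of 2.35 against -0.13 for all measured genes. In the donors 8 of 22 were higher in MEF and 0 were lower, with a median of 1.31 against -0.16 for all genes. Of the 12, 6 were standing, 4 were partial and 2 were new.

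Fos, a subunit of the AP-1 factor, had 3607 CPM in MEF-2F and 168 CPM in PC-2F, against 669 CPM in MEF and 18.6 CPM in PC. Its ratio between the 2F libraries was 21.5 (18.4 to 25.2). After thinning every cell to 1000 UMIs, which left 75 MEF-2F and 178 PC-2F cells, a Fos UMI was found in 88.0% of MEF-2F cells (78.4% to 94.4%) and in 11.2% of PC-2F cells (7.0% to 16.8%). Both 2F libraries thus stood above their own donors, and the difference was in most cells and not in a few. Unthinned shares were 93.9% and 43.6% in the same order of libraries. Thinned donor shares were 40.3% in MEF and 3.75% in PC.

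Fosb, another AP-1 subunit, had 365 CPM in MEF-2F and 1.67 CPM (2 UMIs) in PC-2F, against 148 CPM in MEF and 2.32 CPM in PC. Atf3, a stress-induced factor, had 256 CPM in MEF-2F and 0 UMIs in PC-2F, against 114 CPM in MEF and 0 UMIs in PC. This is a ratio of at least 102. Nr4a1, an orphan nuclear receptor, had 1512 CPM in MEF-2F and 94.2 CPM in PC-2F, against 117 CPM in MEF and 10.1 CPM in PC. For these 3 genes the order of the donors was kept, and Fos had 3722 CPM in the first and 3182 CPM in the second MEF-2F block. Jun and Klf6 were new by the rule: Jun had 613 CPM in MEF-2F and 103 CPM in PC-2F, against 149 CPM in MEF and 123 CPM in PC.

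Positional identity also stood between the 2F cells, at low levels. The 39 listed Hox genes, which record position along the body axis, summed to 491 CPM in MEF-2F and 30.9 CPM in PC-2F, against 493 CPM in MEF and 0 CPM in PC. Of 4 measured between the 2F libraries 3 were higher in MEF-2F, and of 11 measured between the donors 11 were higher in MEF. Hoxc6 had 47.8 CPM (11 UMIs) in MEF-2F and 0 UMIs in PC-2F, against 38.0 CPM in MEF and 0 UMIs in PC. Hoxa7 had 78.2 CPM in MEF-2F and 5.00 CPM in PC-2F, against 31.7 CPM in MEF and 0 UMIs in PC. The summed Hox level of MEF-2F was thus close to that of MEF, while PC-2F held some Hox UMIs that PC did not.

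Imprinted growth genes kept the donor order in part. Of 10 measured, 4 were higher in MEF-2F and 0 lower, against 11 of 15 higher in MEF in the donor pair. Dlk1, a Notch-like inhibitor of differentiation, had 122 CPM in MEF-2F and 0 UMIs in PC-2F, against 63.3 CPM in MEF and 0 UMIs in PC. Meg3, the noncoding RNA of the same imprinted domain, had 86.9 CPM in MEF-2F and 0 UMIs in PC-2F, against 258 CPM in MEF and 0 UMIs in PC. Igf2 and H19, the other well-known imprinted pair, did not follow. Igf2, an embryonic growth factor, had 0 UMIs in MEF-2F and 1.67 CPM in PC-2F, against 6092 CPM in MEF and 3.10 CPM in PC, and H19 had 21.7 CPM in MEF-2F and 5.00 CPM in PC-2F, against 3385 CPM in MEF and 0 UMIs in PC.

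Sex-linked transcripts also differed. Ddx3y, on the Y chromosome, had 13 UMIs in MEF-2F and 0 in PC-2F, against 71 in MEF and 0 in PC. Xist, which coats the inactive X, had 13 UMIs in MEF-2F and 27 in PC-2F, against 1 in MEF and 22 in PC. PC and PC-2F therefore held Xist and no Ddx3y, MEF held Ddx3y with 1 Xist UMI, and MEF-2F held both. Sex and origin cannot be told apart in this comparison.

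Extracellular matrix genes of fibroblasts were higher in MEF-2F, though less so than between the donors. Of 30 measured members of the fibroblast matrix list, 8 were higher and 1 was lower in MEF-2F (median log2 ratio 0.96), against 20 higher and 3 lower of 34 in the donors (median 2.65). Col3a1, a fibrillar collagen, had 2755 CPM in MEF-2F and 534 CPM in PC-2F, against 2091 CPM in MEF and 184 CPM in PC. Ogn, a small leucine-rich proteoglycan, had 226 CPM in MEF-2F and 8.34 CPM in PC-2F, against 405 CPM in MEF and 10.1 CPM in PC. Col1a1, the main chain of type I collagen, was not called, with 1425 CPM in MEF-2F and 373 CPM in PC-2F (ratio 3.82, 3.31 to 4.42), against 4816 CPM in MEF and 600 CPM in PC. In the 3-factor pair the list's median was -0.46, with 3 higher and 5 lower of 31.

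Cartilage collagens were the other matrix group. Col2a1, the fibrillar collagen of cartilage, had 3229 CPM in MEF-2F and 37.5 CPM in PC-2F, against 315 CPM in MEF and 6.96 CPM in PC, a ratio of 86.0 (63.6 to 119). The 10% of MEF-2F cells with most Col2a1 UMIs held 81.3% of them, and the 2 blocks had 2049 and 7588 CPM. Only 38.6% of its MEF-2F UMIs came from codes decoded with a probability above 0.99, and with such codes alone the log2 ratio was 5.05, against 6.41 with all. Col11a2, which joins Col2a1 in cartilage fibrils, was new, with 1069 CPM in MEF-2F and 94.2 CPM in PC-2F, against 3.80 CPM in MEF and 0 UMIs in PC. Cytl1, a cartilage-associated secreted protein, had 317 CPM in MEF-2F and 0 UMIs in PC-2F and in both donors. Of 15 measured cartilage and bone genes, 4 were higher and 1 was lower in MEF-2F. Col9a2 met the rule with 508 CPM in MEF-2F and 118 CPM in PC-2F, with 0 UMIs in both donors, but was nearly level between MEF-3F (1344 CPM) and PC-3F (1236 CPM). The 10% of MEF-2F cells with most of the gene held 93.2% of Cytl1, 69.9% of Col11a2 and 81.2% of Col9a2 UMIs. In the first and second MEF-2F blocks, Cytl1 had 160 and 897 CPM and Col11a2 had 928 and 1591 CPM. Col9a2 had 425 and 816 CPM in the same order.

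Apoe, the lipid carrier, had 1347 CPM in MEF-2F and 50.04 CPM in PC-2F, against 110 CPM in MEF and 1.55 CPM in PC, a ratio of 26.9 (20.4 to 36.1). Gpc3, a glypican of growing embryonic tissue, had 1612 CPM in MEF-2F and 61.7 CPM in PC-2F, against 161 CPM in MEF and 0 UMIs in PC. Smoc2, a matricellular protein of the SPARC family, had 239 CPM in MEF-2F and 2.5 CPM in PC-2F, against 147 CPM in MEF and 0 UMIs in PC. In each of these genes the 2F libraries kept the order of the donors, and Apoe and Gpc3 were higher in both 2F libraries than in their donors.

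**Figure D3:**
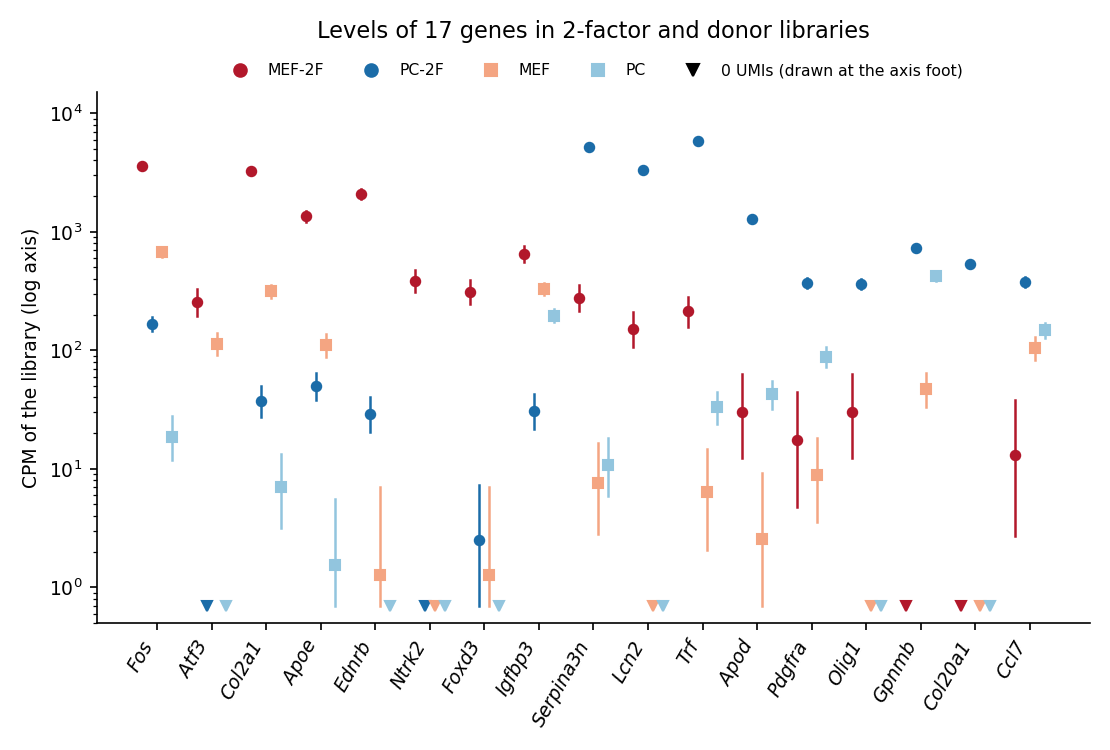
Levels of 17 genes in MEF-2F, PC-2F, MEF and PC (CPM on a log axis), with exact 95% intervals of counting error as bars and 0 UMIs drawn as triangles at the foot. Fos to Igfbp3 were higher in MEF-2F, with Fos at 3607 CPM against 168 CPM in PC-2F, and Serpina3n to Ccl7 were lower in MEF-2F, with Trf at 213 CPM against 5872 CPM in PC-2F.

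Standing differences on the pericyte side included 2 carrier proteins. Trf, the iron carrier transferrin, which oligodendrocytes make, had 213 CPM in MEF-2F and 5872 CPM in PC-2F, against 6.33 CPM in MEF and 33.3 CPM in PC, 27.6-fold lower in MEF-2F (20.8 to 37.3). At 1000 UMIs per cell, Trf was found in 10.7% of MEF-2F cells (4.72% to 19.9%) and 90.4% of PC-2F cells (85.1% to 94.3%), against 0.775% of MEF cells and 4.12% of PC cells. Unthinned, the shares were 18.3% of MEF-2F cells and 99.4% of PC-2F cells. Both 2F libraries thus held more Trf than their donors, and nearly all PC-2F cells had it.

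Apod, apolipoprotein D, a lipocalin of myelinating glia and fibroblasts, had 30.4 CPM in MEF-2F and 1293 CPM in PC-2F, against 2.53 CPM in MEF and 42.6 CPM in PC, 42.5-fold lower in MEF-2F (20.6 to 106). Its start region (RefSeq, GRCm38.p6, chr16:31314759-31315058, minus strand, 250 bases before to 50 after the start) is shown because the transduced factors are a SOX and a bHLH factor. Capitals mark ACAAAG, a core that SOX factors can bind, whose first base lies at -84, and CAGCTG, an E-box, at 35, counted from the start as base 1 with no base 0. Read on both strands, ACAAAG stood in 18.7% and CAGCTG in 16.3% of all 32851 start regions of the same length, and a match is a description and not a site.
Apod: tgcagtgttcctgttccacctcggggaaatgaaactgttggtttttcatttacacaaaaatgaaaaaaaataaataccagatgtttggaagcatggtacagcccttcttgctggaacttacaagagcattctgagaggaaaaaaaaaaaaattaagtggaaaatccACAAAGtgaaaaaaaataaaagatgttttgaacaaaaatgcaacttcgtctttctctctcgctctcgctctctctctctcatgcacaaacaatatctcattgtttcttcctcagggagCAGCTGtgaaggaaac

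Pdgfra, the receptor of the progenitor mitogen PDGF-AA, also marks fibroblasts. It had 17.4 CPM (4 UMIs) in MEF-2F and 371 CPM in PC-2F, against 8.86 CPM in MEF and 88.2 CPM in PC, 21.4-fold lower in MEF-2F (8.28 to 78.7). pOPC had 1374 CPM. Gpnmb, a membrane glycoprotein of lysosomes and melanosomes, had 0 UMIs in MEF-2F and 735 CPM in PC-2F, against 46.9 CPM in MEF and 421 CPM in PC, at least 56.4-fold lower in MEF-2F. Sdpr (cavin-2, of caveolae) had 34.8 CPM in MEF-2F and 505 CPM in PC-2F, against 160 CPM in MEF and 679 CPM in PC. Tfap2b, a neural crest factor, had 0 UMIs in MEF-2F and 81.7 CPM in PC-2F, against 2.53 CPM in MEF and 52.6 CPM in PC. All 4 genes had the order of the donors, and MEF-2F held 8 or fewer UMIs of each.

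Genes of DNA replication and mitosis were lower in MEF-2F as a group. Of 30 measured cell cycle genes, 0 were higher and 12 were lower, with a median log2 ratio of -1.87. In the donors 0 were higher and 4 were lower of 30, with a median of -1.47, and 9 of the 12 counted as partial. Mcm2, a subunit of the replicative helicase, had 13.0 CPM in MEF-2F and 222 CPM in PC-2F, against 62.0 CPM in MEF and 214 CPM in PC. Ccnb1, the mitotic cyclin B1, had 8.69 CPM in MEF-2F and 128 CPM in PC-2F, against 31.7 CPM in MEF and 193 CPM in PC. For Mcm2, PC-2F was near its donor and MEF-2F was below its own. For Ccnb1, MEF-2F held 2 UMIs, and its ratio to MEF was 0.275 (0.0315 to 1.10), an interval that includes no change. The Ccnb1 ratio of PC-2F to PC was 0.664 (0.540 to 0.815). Of 29 cell cycle genes measured between MEF-2F and MEF, 0 were called higher and 1 lower. Between PC-2F and PC, 0 of 30 were called higher and 0 lower.

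Cholesterol synthesis genes had the same direction. Of 20 measured, 0 were higher and 5 were lower in MEF-2F (median -1.49), against 0 and 3 of 20 in the donors (median -1.34). Sqle, squalene epoxidase, had 47.8 CPM in MEF-2F and 283 CPM in PC-2F, against 141 CPM in MEF and 227 CPM in PC. The list's median was -0.70 with the second MEF-2F block alone and -0.90 with cells that held an Olig2 or Sox10 UMI.

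**Figure D4:**
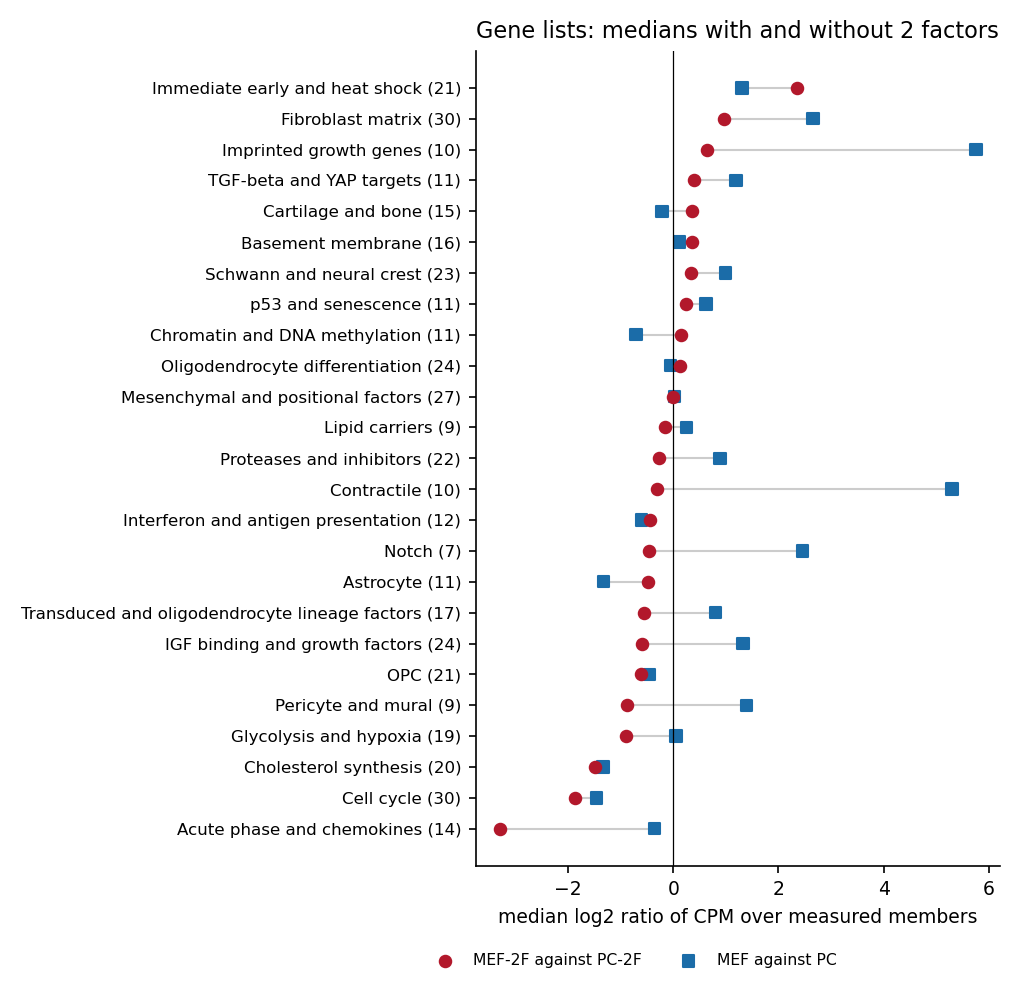
Median log2 ratio over the measured members of each gene list, for MEF-2F against PC-2F (circles) and MEF against PC (squares). The number of members measured between the 2F libraries stands in parentheses, and lists with under 7 are not drawn. Immediate early genes lie at 2.35 in the 2F pair, acute phase and chemokine genes at -3.30, and contractile genes at -0.32 against 5.30 in the donor pair.

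Among new genes higher in MEF-2F, no list had more members than that of Schwann cells and neural crest. Of 23 measured members of that list, 8 were higher and 1 (Tfap2b) was lower in MEF-2F, and 7 of the 8 had been measured in neither donor. The median log2 ratio was 0.34, against -0.13 for all genes, so the other members did not share the difference. Foxd3, a factor of early neural crest and Schwann precursors, had 313 CPM in MEF-2F and 2.5 CPM in PC-2F, against 1.27 CPM in MEF and 0 UMIs in PC.

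Ngfr, the p75 neurotrophin receptor, which marks neural crest and immature Schwann cells, had 352 CPM in MEF-2F and 13.3 CPM in PC-2F, against 15.2 CPM in MEF and 0 UMIs in PC, a ratio of 26.4 (15.3 to 48.3). Its start region (RefSeq, GRCm38.p6, chr11:95587649-95587948, minus strand) is shown as that of a neural crest gene that parted the libraries, and holds the E-box CAGCTG at -25, in capitals, and no ACAAAG.
Ngfr: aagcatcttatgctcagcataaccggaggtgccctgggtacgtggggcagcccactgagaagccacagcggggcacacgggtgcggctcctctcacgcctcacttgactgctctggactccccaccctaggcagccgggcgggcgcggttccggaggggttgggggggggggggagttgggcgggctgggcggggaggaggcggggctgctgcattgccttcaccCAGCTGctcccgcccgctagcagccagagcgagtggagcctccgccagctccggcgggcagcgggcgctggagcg

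Dhh, a hedgehog ligand made by Schwann cells, had 113 CPM in MEF-2F and 1.67 CPM in PC-2F, against 2.53 CPM in MEF and 0 UMIs in PC. Egr2 (Krox20), which drives peripheral myelination and is also an immediate early gene, had 200 CPM in MEF-2F and 15.8 CPM in PC-2F, against 29.1 CPM in MEF and 0 UMIs in PC, and was standing. S100b, a calcium-binding protein of Schwann cells and oligodendrocytes, went the other way without a call, with 217 CPM in MEF-2F and 716 CPM in PC-2F and 0 UMIs in both donors. Schwann and neural crest genes were present in both 2F libraries, and the difference lay in some of them.

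Ednrb, the endothelin B receptor of neural crest and glia, had 2086 CPM in MEF-2F and 29.2 CPM in PC-2F, against 1.27 CPM in MEF and 0 UMIs in PC, a ratio of 71.5 (50.7 to 104). At 1000 UMIs per cell it was found in 42.7% of MEF-2F cells (31.3% to 54.6%) and 2.25% of PC-2F cells (0.616% to 5.65%), and in 0 of 129 MEF and 0 of 267 PC cells, where the limit of 3 cells allows a share of cells with a UMI at that depth of up to 2.33% and 1.12%. Unthinned, the shares were 54.9% of MEF-2F cells and 13.4% of PC-2F cells. Ntrk2, the BDNF receptor TrkB, had 387 CPM in MEF-2F and 0 UMIs in PC-2F, MEF and PC, a ratio of at least 155, and 299 CPM in pOPC. Reln, the secreted protein reelin, had 287 CPM in MEF-2F and 0 UMIs in PC-2F and in both donors. Slc1a3, a glutamate transporter of astrocytes and progenitors, had 130 CPM in MEF-2F and 1.67 CPM in PC-2F, against 17.7 CPM in MEF and 0 UMIs in PC. Both blocks of MEF-2F held Ednrb (2259 and 1448 CPM) and Ntrk2 (403 and 326 CPM), so neither rested on 1 block.

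**Figure D5:**
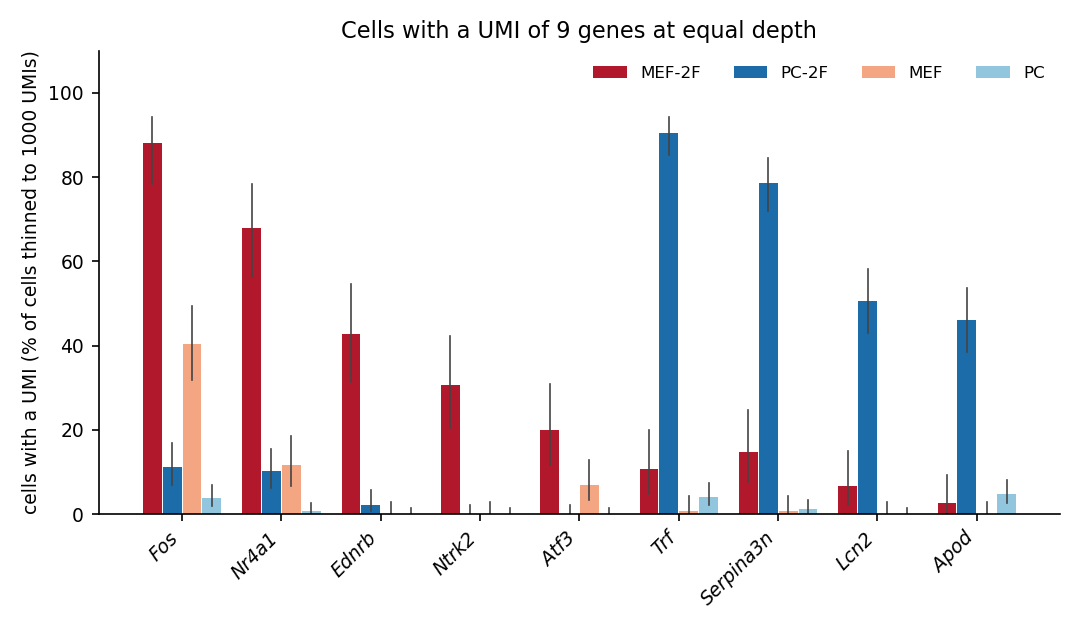
Share of cells with at least 1 UMI of each gene after thinning each cell to 1000 UMIs, in 75 MEF-2F, 178 PC-2F, 129 MEF and 267 PC cells, with exact 95% binomial intervals as lines. Fos was found in 88.0% of MEF-2F and 11.2% of PC-2F cells, and Trf in 10.7% of MEF-2F and 90.4% of PC-2F cells.

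New genes lower in MEF-2F were led by acute phase proteins and chemokines, secreted signals that stromal cells and glia make under inflammation. Of 14 measured members of that list 0 were higher and 11 were lower in MEF-2F, with a median log2 ratio of -3.30. The donors had 3 higher and 1 lower of 7, with a median of -0.36. The summed level was 1186 CPM in MEF-2F and 13511 CPM in PC-2F, against 1874 CPM in MEF and 867 CPM in PC. In the 11 genes, 7 were measured in neither donor, 2 were new with donors alike, Ccl2 was partial and Cp was standing.

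Serpina3n, a protease inhibitor that reactive glia make, had 278 CPM in MEF-2F and 5225 CPM in PC-2F, against 7.60 CPM in MEF and 10.8 CPM in PC, 18.8-fold lower in MEF-2F (14.7 to 24.4). At 1000 UMIs per cell it was found in 14.7% of MEF-2F cells (7.56% to 24.7%) and 78.7% of PC-2F cells (71.9% to 84.4%), against 0.775% of MEF and 1.12% of PC cells, and unthinned in 34.1% of MEF-2F and 91.1% of PC-2F cells. Lcn2, lipocalin-2, had 152 CPM in MEF-2F and 3334 CPM in PC-2F and 0 UMIs in both donors, 21.9-fold lower in MEF-2F (15.7 to 31.5), a log2 ratio of -4.43 that became -5.76 with codes of a probability above 0.99 alone. Cxcl1, a chemokine that draws neutrophils, had 56.5 CPM in MEF-2F and 457 CPM in PC-2F, against 7.60 CPM in MEF and 6.96 CPM in PC. C3, the central complement protein, had 30.4 CPM in MEF-2F and 280 CPM in PC-2F and 0 UMIs in both donors. These genes were low in both donors, and both 2F libraries were above their donors, PC-2F by more.

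The start regions of Serpina3n (chr12:104406458-104406757, plus strand) and Cxcl1 (chr5:90890995-90891294, plus strand; RefSeq, GRCm38.p6) are shown because the group is known for control by NF-kB. Capitals mark a form of the NF-kB motif of 10 bases, GGG then any 2 bases then TTTCC, read on both strands: its first base lies at -171 in Serpina3n, and at -89 and -71 in Cxcl1. Of all start regions 1.63% held it, and of the 5924 measured genes with a region 1.91% did. Among genes measured in neither donor that had a region, 3 of 35 lower and 1 of 87 higher in MEF-2F held it. Serpina3n and Cxcl1, chosen for display after their values were seen, are among those 3. A match is a description and not a site, and control by NF-kB was not tested. C3 and Lcn2 had none in this window.
Serpina3n: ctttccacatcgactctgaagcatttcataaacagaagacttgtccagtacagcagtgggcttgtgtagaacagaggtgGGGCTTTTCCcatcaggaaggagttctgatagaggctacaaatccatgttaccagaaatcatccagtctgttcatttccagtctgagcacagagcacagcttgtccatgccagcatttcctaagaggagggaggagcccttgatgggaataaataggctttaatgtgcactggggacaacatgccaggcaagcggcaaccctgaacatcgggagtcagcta
Cxcl1: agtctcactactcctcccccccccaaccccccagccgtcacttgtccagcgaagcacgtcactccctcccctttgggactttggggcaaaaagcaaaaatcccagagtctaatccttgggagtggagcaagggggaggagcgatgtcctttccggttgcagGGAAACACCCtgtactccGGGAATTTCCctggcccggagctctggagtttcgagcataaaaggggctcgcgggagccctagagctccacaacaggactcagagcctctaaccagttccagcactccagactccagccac

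Ccl2, a monocyte chemokine, had 135 CPM in MEF-2F and 1456 CPM in PC-2F, against 89.9 CPM in MEF and 275 CPM in PC. Ccl7, a related chemokine, had 13.0 CPM (3 UMIs) in MEF-2F and 377 CPM in PC-2F, against 104 CPM in MEF and 148 CPM in PC, with the 2F libraries on opposite sides of their donors. It was found in 17.9% of PC-2F cells, and the 10% of PC-2F cells with most of it held 93.8% of its UMIs. Cp, ceruloplasmin, had 400 CPM in MEF-2F and 1798 CPM in PC-2F, against 7.60 CPM in MEF and 197 CPM in PC. Lcn2, Ccl2 and C3 were higher in the second MEF-2F block than in the first (530 against 49.7 CPM for Lcn2, 551 against 22.1 CPM for Ccl2 and 122 against 5.52 CPM for C3). Of the 12 measured members of the interferon and antigen presentation list, 0 were higher and 0 were lower, with a median of -0.45. That list does not hold the interferon-inducible Irgm1 or the MHC class II genes H2-Aa and H2-Ab1, which were lower in MEF-2F and are described below.

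Oligodendrocyte genes were split between the sides. Of 24 measured members of the differentiation list, 2 were higher and 5 were lower in MEF-2F, with a median log2 ratio of 0.12. Mbp, myelin basic protein, met the rule narrowly with 117 CPM in MEF-2F and 29.2 CPM in PC-2F (ratio 4.02, 2.34 to 6.84), against 2.53 CPM in MEF and 3.10 CPM in PC. Its UMIs lay mostly in the second MEF-2F block (490 CPM), and with the first block alone (16.6 CPM) MEF-2F was below PC-2F, with a log2 ratio of -0.62. Mal, a proteolipid of compact myelin, had 478 CPM in MEF-2F and 75.1 CPM in PC-2F, against 1.27 CPM in MEF and 0 UMIs in PC. Genes on the other side included regulators and late products of the lineage. Myrf, the factor that turns on central myelin genes, had 0 UMIs in MEF-2F and 112 CPM in PC-2F, against 2.53 CPM in MEF and 3.10 CPM in PC. Enpp2 (autotaxin, made by differentiating oligodendrocytes) had 34.8 CPM in MEF-2F and 757 CPM in PC-2F, and Nfasc, a node protein, had 4.35 CPM in MEF-2F and 144 CPM in PC-2F, both with 0 UMIs in the donors. Tppp, a microtubule protein of oligodendrocytes, had 0 UMIs in MEF-2F and 116 CPM in PC-2F and 0 UMIs in both donors.

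The transduced factors themselves were not called. A 3′ tag cannot tell the virus from the endogenous gene where they share the end, and the virus design is not given in the sources used here. Olig2 had 65.2 CPM (15 UMIs) in MEF-2F and 191 CPM (229 UMIs) in PC-2F, a ratio of 0.341 (0.188 to 0.575), with 0 UMIs in both donors. Sox10 had 130 CPM (30 UMIs) in MEF-2F and 251 CPM (301 UMIs) in PC-2F, a ratio of 0.519 (0.344 to 0.757), against 12.7 CPM in MEF and 0 UMIs in PC. A UMI of either was found in 27 of 82 MEF-2F cells (32.9%, 22.9% to 44.2%) and 122 of 179 PC-2F cells (68.2%, 60.8% to 74.9%), at median depths of 2411 and 6259 UMIs, against 5 of 131 MEF and 0 of 290 PC cells. Both factors were thus lower in MEF-2F, within 4-fold, and the shares of cells differ in depth as well.

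Progenitor genes of the OPC list had 1 higher and 3 lower of 21 measured in MEF-2F, with a median of -0.61. Olig1, the paralog of Olig2 that was not transduced, had 30.4 CPM (7 UMIs) in MEF-2F and 363 CPM in PC-2F and 0 UMIs in both donors, 11.9-fold lower in MEF-2F (5.74 to 29.8). In the 3-factor pair Olig1 was called the other way, with 687 CPM in MEF-3F and 159 CPM in PC-3F, and pOPC had 2768 CPM. Gpr17, a receptor of committed progenitors, had 17.4 CPM in MEF-2F and 111 CPM in PC-2F and 0 UMIs in both donors. Cspg4, the NG2 proteoglycan of progenitors and pericytes, was not called, with 365 CPM in MEF-2F and 675 CPM in PC-2F, against 89.9 CPM in MEF and 55.7 CPM in PC. Of the listed progenitor genes, Ednrb alone was called higher in MEF-2F.

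Several secreted or surface proteins were seen in PC-2F and had 0 UMIs in MEF-2F. Col20a1, a fibril-associated collagen, had 0 UMIs in MEF-2F and 535 CPM in PC-2F and 0 UMIs in both donors, at least 41.1-fold lower in MEF-2F. Fcgr2b, an inhibitory Fc receptor, had 0 UMIs in MEF-2F and 360 CPM in PC-2F, against 6.33 CPM in MEF and 0 UMIs in PC. Oc90, a protein of otoconia in the inner ear, had 0 UMIs in MEF-2F and 163 CPM in PC-2F and 0 UMIs in both donors. Macrophage markers were at 2 UMIs in PC-2F, so Fcgr2b stood there without them. Mmp3, a matrix metalloproteinase, had 34.8 CPM in MEF-2F and 276 CPM in PC-2F, but the 10% of PC-2F cells with most of it held 98.2% of its UMIs.

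Of the new genes whose donors were alike, Igfbp3 was the highest in MEF-2F. Igfbp3, which binds insulin-like growth factors, had 652 CPM in MEF-2F and 30.9 CPM in PC-2F, against 331 CPM in MEF and 196 CPM in PC, a ratio of 21.1 (14.7 to 31.2). Lama2, the laminin chain of muscle and Schwann cell basement membranes, had 222 CPM in MEF-2F and 20.9 CPM in PC-2F, against 21.5 CPM in MEF and 18.6 CPM in PC. Abca1, a cholesterol exporter, had 209 CPM in MEF-2F and 20.9 CPM in PC-2F, against 30.4 CPM in MEF and 34.0 CPM in PC. For Lama2 and Abca1, MEF-2F was above its donor and PC-2F close to its own or lower, and for Igfbp3 MEF-2F was above and PC-2F below.

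On the other side, Cav1, the main protein of caveolae, had 30.4 CPM in MEF-2F and 533 CPM in PC-2F, against 467 CPM in MEF and 317 CPM in PC, 17.5-fold lower in MEF-2F (8.45 to 43.8). Emb, the adhesion protein embigin, had 47.8 CPM in MEF-2F and 615 CPM in PC-2F, against 35.5 CPM in MEF and 29.4 CPM in PC. Mgp, matrix Gla protein, had 39.1 CPM in MEF-2F and 243 CPM in PC-2F, against 1257 CPM in MEF and 1459 CPM in PC. Irgm1, an interferon-inducible GTPase, had 4.35 CPM (1 UMI) in MEF-2F and 146 CPM in PC-2F, against 89.9 CPM in MEF and 133 CPM in PC. Cav1, Mgp and Irgm1 were below the donor in MEF-2F, whereas Emb was above it in PC-2F. Mgp was below the donor in PC-2F as well, though by less than in MEF-2F.

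Opposite to the donors stood 30 genes, of which the contractile list held 1, Acta2. Acta2, smooth muscle actin, had 13.0 CPM (3 UMIs) in MEF-2F and 92.6 CPM in PC-2F, against 9110 CPM in MEF and 45.7 CPM in PC, 7.10-fold lower in MEF-2F (2.37 to 35.0). Col8a1, a short-chain collagen of vessels, had 0 UMIs in MEF-2F and 147 CPM in PC-2F, against 1259 CPM in MEF and 228 CPM in PC. Tgfb2, a TGF-beta ligand, had 13.0 CPM (3 UMIs) in MEF-2F and 103 CPM in PC-2F, against 157 CPM in MEF and 9.29 CPM in PC. Nkd2, an inhibitor of Wnt signalling, had 17.4 CPM in MEF-2F and 354 CPM in PC-2F, against 43.1 CPM in MEF and 7.74 CPM in PC. For Acta2 and Col8a1, MEF-2F was near or at 0, and for Nkd2, PC-2F was far above PC. The 10% of PC-2F cells with most of the gene held 82.9% of Acta2 UMIs and 88.1% of Col8a1 UMIs.

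The other direction held Nr2f2 and Itpr3. Nr2f2 (COUP-TFII), a nuclear receptor of mesenchyme and veins, had 621 CPM in MEF-2F and 130 CPM in PC-2F, against 55.7 CPM in MEF and 315 CPM in PC. Itpr3, an IP3 receptor of the endoplasmic reticulum, had 148 CPM in MEF-2F and 13.3 CPM in PC-2F, against 21.5 CPM in MEF and 133 CPM in PC. Both genes were above the donor in MEF-2F and below it in PC-2F.

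Some donor differences had no counterpart between the 2F cells. Contractile genes were higher in MEF than in PC in 11 of 15 measured (median log2 ratio 5.30), and between the 2F libraries 0 were higher and 1 (Acta2) was lower of 10 (median -0.32). Tagln, the actin-binding protein transgelin, had 65.2 CPM in MEF-2F and 24.2 CPM in PC-2F, against 4218 CPM in MEF and 14.7 CPM in PC. Pericyte and mural genes had 1 higher and 0 lower of 9 (median -0.88) between the 2F libraries, against 6 and 0 of 13 in the donors. Pdgfrb, the PDGF receptor of mural cells, had 39.1 CPM in MEF-2F and 83.4 CPM in PC-2F, against 213 CPM in MEF and 344 CPM in PC. Rgs5, a pericyte marker, had 4.35 CPM in MEF-2F and 46.7 CPM in PC-2F, against 63.3 CPM in MEF and 0 UMIs in PC. Both 2F libraries were below both donors for Pdgfrb.

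The remaining gene lists held few calls or calls in both directions. Growth factors and IGF-binding proteins had 4 higher and 4 lower of 24 in MEF-2F (median log2 ratio -0.60), against 15 higher and 5 lower of 35 in MEF. Mesenchymal and positional factors had 5 higher and 1 lower of 27 (median -0.01), and basement membrane genes 2 higher and 2 lower of 16 (0.35). Proteases and their inhibitors had 1 higher and 2 lower of 22 (-0.27), against 6 higher and 0 lower of 23 in MEF. Lipid carriers had 3 higher and 1 lower of 9 (-0.15). TGF-beta and YAP targets had 1 higher and 0 lower of 11 (0.39), and genes of p53 and senescence 2 higher and 0 lower of 11 (0.24), against 5 higher and 0 lower in MEF for each list. Glycolysis and hypoxia genes had 1 higher and 0 lower of 19 (-0.89), Notch genes 1 higher and 0 lower of 7 (-0.46), and chromatin genes 0 higher and 1 lower of 11 (0.14). Astrocyte genes had 1 higher and 2 lower of 11 (-0.49), and neuronal genes 1 higher and 0 lower of 5 (0.66).

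The 3-factor libraries, which the comparison did not use, showed how far the differences recurred under a related treatment. Between MEF-3F and PC-3F, 470 of 8659 measured genes (5.43%) were higher and 253 (2.92%) were lower in MEF-3F, 723 (8.35%) in all. Of the 385 genes higher in MEF-2F, 186 (48.3%) were also called higher in MEF-3F and 1 lower, and of the 198 lower genes 77 (38.9%) were also called lower and 2 higher. The share was 69.8% for standing higher genes (81 of 116), 42.4% for those measured in neither donor (59 of 139) and 26.7% for those with donors alike (16 of 60). For lower genes these shares were 51.5%, 40% and 32.7%. Fos had 3555 CPM in MEF-3F and 189 CPM in PC-3F, a ratio of 18.8 (15.6 to 22.8). Apod had 17.5 CPM in MEF-3F and 2089 CPM in PC-3F, 120-fold lower in MEF-3F (60.5 to 278). Trf had 54.6 CPM in MEF-3F and 6181 CPM in PC-3F, 113-fold lower in MEF-3F (76.6 to 175), a larger ratio than between the 2F libraries. Gpnmb, with 34.9 CPM in MEF-3F and 86.6 CPM in PC-3F, was not called there.

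Rows without a usual gene name took a large part of the higher calls. Of 250 measured rows that are named pseudogenes or carry a Gm number, 107 (42.8%) were higher and 2 (0.8%) were lower in MEF-2F, so they made up 107 of the 385. Many such rows share reads with a near-identical copy, and their calls are uncertain. Their UMIs were 4.26% of all in MEF-2F and 1.86% in PC-2F, against 2.72% in MEF and 3.19% in PC. Of 9 measured mitochondrial genes 0 were higher and 6 were lower in MEF-2F, and mitochondrial UMIs were 0.329% in MEF-2F and 1.62% in PC-2F, against 0.217% in MEF and 0.137% in PC. mt-Cytb, a subunit of respiratory complex III, had 1130 CPM in MEF-2F and 5861 CPM in PC-2F, against 585 CPM in MEF and 424 CPM in PC. Leaving out mitochondrial and ribosomal genes from the totals gave the same 385 and 198 calls in number.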

How the data were processed

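The 7 libraries hold 3′ transcript tags with cell barcodes and UMIs from the ddSEQ system. Alignment and counting tools listed in the submitters' processing notes were STAR 2.5.3a and featureCounts 1.6.1 (Subread), beside UMI-tools 0.5.3 and bcl2fastq 2.19.1.403, with mm10 as genome and no roles given. The values deposited by the authors are of another kind than counts, and how they were made is not stated. Each was read as the place, from 0, of a UMI count in the text-sorted list of the counts that occur, which was inferred and is stated by no label. The plan had taken them for counts. Counts were recovered per barcode block with a smooth model of count frequencies. Codes with a probability above 0.99 held 92.2% to 98.2% of UMIs in the MEF-2F blocks and 97.2% in PC-2F. On simulated codes, which assume this reading, 99.89% to 99.99% of entries were exact, and gene sums were off by at most 10.9% (second block of MEF-2F).

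Barcodes with 500 or more UMIs were kept, UMIs were summed per library and divided by the library total (CPM), and a gene without a row in a library was read as 0. Doublets were not called, and 1 MEF-2F cell and 0 PC-2F cells had more than 3 times their library's median UMIs. Ratios carry exact conditional binomial intervals, levels exact Poisson intervals and shares Clopper-Pearson intervals, at 95%. A library at 0 was set at 3 UMIs for a fold, and log2 ratios had 0.5 UMI added per library. In simulated counts for MEF-2F against PC-2F, 50 of 50 genes set 8-fold higher, 49 of 50 set 8-fold lower and 0 of 7510 unchanged genes were called. Of genes set between 2- and 4-fold apart, 0 of 50 raised and 3 of 50 lowered were called. The changed genes had 100 CPM or more, and the counts held Poisson error only, with no variation between cells, cultures or libraries. They therefore cannot show how often the rule would part replicate libraries. Scripts ran in Python 3.11.15 with numpy 2.4.6, scipy 1.17.1, pandas 2.3.3 and matplotlib 3.10.9.

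Members, lists and rules were chosen with earlier results of these data known. Genes were named by a rule: with 100 CPM and 30 UMIs in 1 library and an interval beyond 2-fold, the 12 extreme ratios at each end and the 8 each way within a class; from each list, the 5 largest ratios among measured members; and always Acta2, Col1a1, Cspg4, Mbp, Nkx6-2, Olig1, Olig2, Pdgfra, Pdgfrb, Rgs5, Sox10 and Xist. Mitochondrial, ribosomal protein, Gm and Rik genes were left out of that rule, and not all genes it names are shown. Genes outside it (Col3a1, Gpc3, Cxcl1, Serpina3n, Ccl2, C3, Cp, Egr2, Jun, Klf6, Mal, Igf2, H19, mt-Cytb, the donor levels given for context and all genes under the other observations) were chosen after their values were seen.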

Additional observations from a re-analysis of the deposited data

Results flagged for a closer look

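6 named genes were called against the donor on both sides by the 4-fold rule, one way in MEF-2F and the other way in PC-2F. With 1 library a population the difference was not tested. Lims2, a protein of focal adhesions, had 0 UMIs in MEF-2F and 69.6 CPM in its donor MEF, but 103 CPM in PC-2F and 6.19 CPM in its donor PC, so that the log2 change from the donor in MEF-2F minus that in PC-2F was -9.00. Myl9, a myosin light chain of contraction, had 109 CPM in MEF-2F, below the 1511 CPM of MEF, but 346 CPM in PC-2F and 37.9 CPM in PC, a difference of -6.95. Tgfb2 gave -6.79. Jag1, a Notch ligand, had 34.8 CPM in MEF-2F, below the 153 CPM of MEF, but 113 CPM in PC-2F and 5.42 CPM in PC, a difference of -6.34. Odc1, the first enzyme of polyamine synthesis, had 17.4 CPM in MEF-2F, below the 115 CPM of MEF, but 173 CPM in PC-2F and 37.1 CPM in PC, a difference of -4.77. Itpr3 alone of the 6 went up in MEF-2F and down in PC-2F, with 6.04. Over all genes measured in both, 3 of 6804 were called higher in MEF-2F than MEF and lower in PC-2F than PC, and 22 the other way round.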

How the results depend on the processing

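No paired analysis was possible because each population is 1 library. The counts below are given as higher and lower in MEF-2F, standing higher and lower, new higher and lower, and opposite, where the values reported are 385, 198, 116, 33, 199, 105 and 30. A minimum of 100 CPM gave 173, 131, 28, 14, 129, 86 and 9. A 2-fold rule gave 955, 1125, 305, 363, 591, 681 and 138, and an 8-fold rule gave 201, 40, 41, 4, 99, 22 and 8, so that lower calls outnumbered higher ones under 2-fold alone. The second MEF-2F block alone gave 168, 48, 42, 9, 86, 26 and 19. Cells with an Olig2 or Sox10 UMI alone gave 214, 107, 60, 16, 109, 67 and 25. Cells with 1000 to 6000 UMIs, an alternative chosen after seeing the data, gave 59 standing higher and 15 standing lower genes. For MEF against PC the reported 603 higher and 455 lower became 174 and 149 at 100 CPM, 1292 and 1663 at 2-fold, 348 and 134 at 8-fold, 377 and 239 with 1000 to 6000 UMIs, and 263 higher and 367 lower with the first PC block alone, which turned the balance. PC-2F thinned to the depth of MEF-2F gave 280 higher and 201 lower.

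Of 62 values for the 5 lists with a median log2 ratio of 1 or more in size 0 changed sign, and of 285 for the 22 lists with smaller medians 24 did, among them oligodendrocyte differentiation (-0.08 with the first MEF-2F block and -0.15 with PC-2F thinned). The cholesterol list had -0.70 with the second MEF-2F block and -0.90 with Olig2 or Sox10 cells, glycolysis -1.29 and imprinted genes -0.32 with the second block, and Hox genes 6.92 with the mean of single-cell CPM. Of 1534 values of 118 called named genes 2 reversed: Mbp, with -0.62 in the first MEF-2F block alone, and Peg10, with -0.34 in the second alone. Each block holds fewer cells, and no other cause was tested. Trimmed mean scaling shifted log2 ratios by 0.06 between the 2F libraries. Genes at 0 in MEF-2F are bounded only to 13.0 CPM, and each value rests on 1 library.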

Other observations

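Genes linked to melanosomes and pigment cells, another neural crest fate, were seen in PC-2F. Pmel, the fibril protein of melanosomes, had 0 UMIs in MEF-2F and 84.2 CPM in PC-2F, against 3.80 CPM in MEF and 0 UMIs in PC, and was found in 44 of 179 PC-2F cells. Oca2, a melanosome membrane protein, had 0 UMIs in MEF-2F and 90.1 CPM in PC-2F and 0 UMIs in both donors, and was found in 49 PC-2F cells. Of the 44 cells with Pmel 31 also held Gpnmb and 15 held Oca2. Over all 179 PC-2F cells, 125 (69.8%) held Gpnmb and 49 (27.4%) held Oca2, so these overlaps were near the shares over all cells and single out no group of cells. PC-3F had 83.5 CPM of Pmel and 28.3 CPM of Oca2. Kit, a receptor of melanoblasts and other cells, had 0 UMIs in MEF-2F and 40.9 CPM in PC-2F and was not called, and Dct, a melanin enzyme, had 0 UMIs in MEF-2F and 23.4 CPM in PC-2F. Mitf, the main factor of the pigment lineage, had 39.1 CPM in MEF-2F and 70.9 CPM in PC-2F, and Tyrp1, another melanin enzyme, had 39.1 CPM in MEF-2F and 1.67 CPM in PC-2F, so that not all genes of the group lay on the PC-2F side.

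Transcripts of 2 MHC class II chains were seen in some PC-2F cells while macrophage markers were near 0. H2-Aa had 0 UMIs in MEF-2F and 75.9 CPM in PC-2F, in 13 of 179 cells, and H2-Ab1 had 0 UMIs in MEF-2F and 75.9 CPM in PC-2F, in 34 cells, with 0 UMIs of either in both donors. 9 cells held both. H2-Eb1, another class II chain, had 2 UMIs in MEF-2F and 1 UMI in PC-2F. Scn7a, a sodium channel of glia, had 69.5 CPM in MEF-2F and 0 UMIs in PC-2F, and Cldn19, a claudin of Schwann cells, had 43.5 CPM (10 UMIs in 5 cells) in MEF-2F and 0 UMIs in PC-2F. Itgb8, an integrin that activates latent TGF-beta, had 517 CPM in MEF-2F and 50.04 CPM in PC-2F, against 12.7 CPM in MEF and 3.87 CPM in PC. Malat1, a nuclear noncoding RNA, had 621 CPM in MEF-2F and 71.7 CPM in PC-2F, against 225 CPM in MEF and 71.2 CPM in PC.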
